A study of Mus musculus with 1298 samples.

Results

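The Pax7-lineage neurons at E14.5 were 220 of the 3916 single cells of this study and of the 1294 cells taken at that stage. They were chosen by measured expression: the mean of log2(1 + counts per 10000) over Tubb3, Elavl3, Dcx and Rtn1 had to exceed the same score of each of 8 other panels of 4 genes (mesenchymal, muscle, dermal, adipocyte, neural progenitor and pericyte genes) and reach 0.7. A 10x library of 968 cells, which counts transcripts by molecular identifiers (UMIs), held 97 of them. The other neurons came from 4 Smart-seq2 plates, which sequence full-length cDNA, with 29, 22, 30 and 42 neurons among 92, 89, 86 and 59 cells. All embryos carried Pax7CreER and R26R-stop-EYFP, in which tamoxifen lets Cre switch on YFP in cells that express Pax7 and so in their descendants. The authors gave the pregnant mice a single dose of tamoxifen, before E12.5. YFP+ cells of E12.5, E14.5 and E16.5 were sorted after head, limbs and viscera had been taken off, and embryos were pooled, so that a library or plate stands for no single animal. The authors digested embryos with collagenase and added Dispase from E14.5 on, but not at E12.5. The same rule found neurons in 39.5% of 1017 10x cells at E12.5, and 3 neurons on 10x and 8 on Smart-seq2 at E16.5, too few to compare.

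In the developing spinal cord Pax7 marks dorsal progenitors, and their daughters become interneurons that process touch, itch and pain. Dorsal horn neurons divide into an inhibitory class, marked by Pax2 and Lhx1/5 and releasing GABA and glycine, and an excitatory class, marked by Tlx3 and Lmx1b and releasing glutamate. Neurons born early, in between and late also carry different temporal transcription factors, with Onecut factors first, Pou2f2 and Zfhx factors next, and nuclear factor I proteins with Neurod2 and Neurod6 last.

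The promoters of 4 genes on which the results turn are printed first, since Neurod2 and Neurod6 were both higher at E14.5 than at E12.5, while Gad2 and Slc17a6 belonged to opposite neuron classes. Each window is a RefSeq promoter (GRCm38.p6) from 250 bases before to 50 after a transcription start, 5′ to 3′. Capitals mark matches on either strand to the E-box CAGATG or to TTGGC, which nuclear factor I proteins recognise, and neither motif contains the other.
Neurod2, chr11:98329596-98329895, minus strand: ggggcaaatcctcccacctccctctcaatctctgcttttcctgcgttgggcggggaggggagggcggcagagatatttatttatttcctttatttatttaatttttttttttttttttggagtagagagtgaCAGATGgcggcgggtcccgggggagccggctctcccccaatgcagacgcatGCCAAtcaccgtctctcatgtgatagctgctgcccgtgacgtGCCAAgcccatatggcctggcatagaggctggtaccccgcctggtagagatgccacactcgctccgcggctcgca
Neurod6, chr6:55681214-55681513, minus strand: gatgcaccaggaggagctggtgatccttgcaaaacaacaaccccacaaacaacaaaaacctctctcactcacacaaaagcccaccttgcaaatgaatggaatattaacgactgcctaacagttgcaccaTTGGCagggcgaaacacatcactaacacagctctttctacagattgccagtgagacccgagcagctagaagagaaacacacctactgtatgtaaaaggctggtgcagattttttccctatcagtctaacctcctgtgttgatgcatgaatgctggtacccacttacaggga
Gad2, chr2:22622077-22622376, plus strand: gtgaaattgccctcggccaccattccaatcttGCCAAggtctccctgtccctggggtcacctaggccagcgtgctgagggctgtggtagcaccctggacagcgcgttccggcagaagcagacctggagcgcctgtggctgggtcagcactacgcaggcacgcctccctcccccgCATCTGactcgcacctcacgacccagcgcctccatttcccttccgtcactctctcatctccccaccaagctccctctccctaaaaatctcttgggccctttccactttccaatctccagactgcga
Slc17a6, chr7:51621580-51621879, plus strand: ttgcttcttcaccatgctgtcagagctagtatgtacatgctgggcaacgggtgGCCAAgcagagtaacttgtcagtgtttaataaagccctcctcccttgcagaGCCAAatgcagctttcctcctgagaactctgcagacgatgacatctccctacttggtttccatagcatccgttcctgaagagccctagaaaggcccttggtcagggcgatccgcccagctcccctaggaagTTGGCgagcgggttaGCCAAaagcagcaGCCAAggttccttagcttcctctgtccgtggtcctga
The Neurod2 window held 1 CAGATG and 2 TTGGC, the Neurod6 window 0 and 1, the Gad2 window 1 and 1, and the first of 2 Slc17a6 windows 0 and 5. The second Slc17a6 window held 1 CAGATG and 1 homeodomain core TAATTA, which the 4 printed windows lack. Of all 32851 promoters of this length, 17.2% held CAGATG, 46.7% TTGGC and 5.29% TAATTA on either strand.

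Neurons had a median of 2877 UMIs and 1485 genes on 10x, where the median over all cells was 5909 UMIs, and a median of 695075 counts and 6680 genes on Smart-seq2. The 10x libraries of E12.5 and E14.5, and those of E14.5 and E16.5, shared 1 cell barcode each. The lowest panel score of a member was 1.17 on 10x and 1.52 on Smart-seq2, and the closest other panel lay 0.15 and 0.93 below. Just outside the rule, 18 10x and 3 Smart-seq2 cells reached 0.7 on the neuronal panel with another panel as high or higher. Among the members, 9 on 10x and 5 on Smart-seq2 also reached it on a panel other than the neuronal and neural progenitor ones. Such mixed cells were a larger share of the E12.5 neurons on both platforms. On 10x nearly as many E12.5 neurons were mixed as were not, and on Smart-seq2 77 of 99 were not. The 2 stages compared below therefore differed in their share of mixed cells. With mixed cells left out of that test, 7 of 99 named genes lost their call and 1 gained one.

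Neuronal genes outside the rule were high in these cells, which is a description with no test, because the rule made this contrast. Stmn2, a regulator of microtubules in growing axons, was at 1339 CPM (counts scaled to the summed counts of the pool) on 10x and 646.3 on Smart-seq2, against 48.7 and 50.8 in the other E14.5 cells. Elavl4, a neuronal RNA-binding protein, was at 487.6 and 331.6 CPM against 4.34 and 1.56. Of the markers of other cell types, Olig1, Sox10, Cdh5, Lyz2 and Krt14 were at 0 on both platforms. They were picked from a longer list, of which not all members were at 0 or are reported here. Pax6, listed as a neural progenitor marker, was detected at any count in 5.15% of 10x neurons and 46.3% of Smart-seq2 neurons. Collagen transcripts were present on 10x, with Col3a1 at 199.5 CPM in neurons and 1872 in the other cells of that library, and low on Smart-seq2 at 7.58. The globin gene Hbb-bt was at 66.5 CPM in 10x neurons and 49.6 in the other cells. Hba-a2, another globin gene, was at 111.4 CPM on Smart-seq2 plate b4 and between 0 and 2.69 on the other 3. Col3a1 and Hba-a2 were also higher at E14.5 than at E12.5 in the test below (adjusted p = 1.57e-10 and 2.06e-10 by edgeR), and the part of RNA from other cells in the results was not tested.

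**Figure D1:**
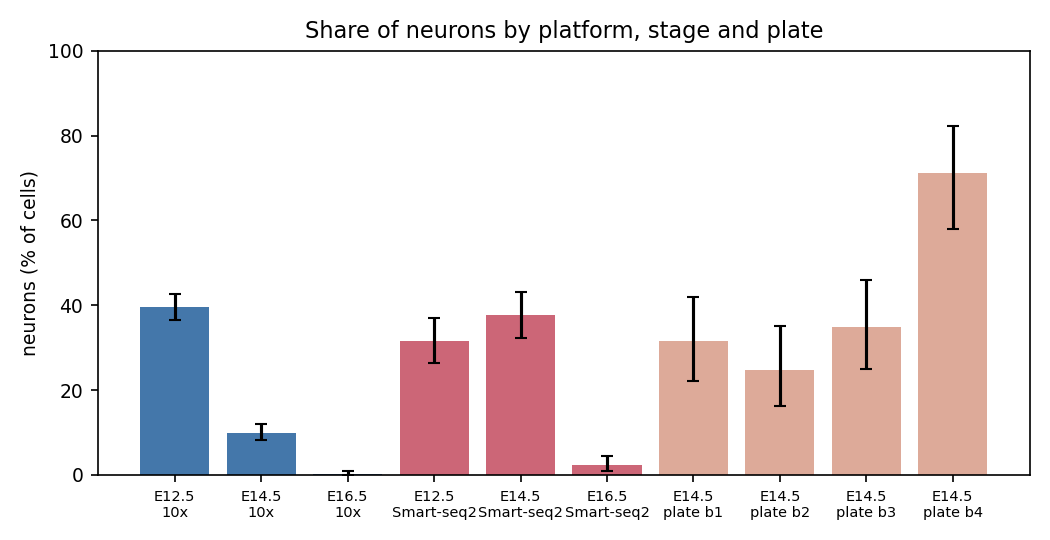
Percent of cells that were neurons (bars) with 95% Clopper-Pearson intervals, by platform and stage and for the 4 Smart-seq2 plates of E14.5. The 10x bars stand at 39.5%, 10% and 0.316%, and plate b4 at 71.2% lies above the other 3 plates.

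Neurons made up 10% of the 10x cells of E14.5 (95% Clopper-Pearson interval 8.2 to 12.1, counting error only) and 37.7% of the Smart-seq2 cells (32.4 to 43.2). The plates held 31.5%, 24.7%, 34.9% and 71.2%, and without the last, plate b4, the Smart-seq2 share was 30.3% (24.9 to 36.2). The share was lower at E14.5 than at E12.5 on 10x, where it had been 39.5% (36.5 to 42.6). On Smart-seq2 it had been 31.5% (26.4 to 37), with an interval that overlapped that of E14.5. The 7 plates of E12.5 were uneven, from 0% on 3 of them to 51.6% on b1 and 67.5% on b2, and without b2 the share was 18.6% (13.8 to 24.2). Each platform had 1 pool per stage, so that stage and pool cannot be told apart.

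Neurons of E14.5 were then compared with those of E12.5. Most late temporal factors and most tested genes listed for the excitatory class were higher at E14.5, as was a minority of synaptic genes. Most early and middle temporal factors, neurogenesis genes and cell cycle genes were lower, with the counts given below. Counts were summed over the neurons of each platform and stage, and the 4 sums were fitted with platform and stage as terms by edgeR's quasi-likelihood test, with p-values adjusted by the Benjamini-Hochberg method. Of 13507 genes, 657 (4.86%) passed an adjusted p of 0.05, 2.1% of all genes higher and 2.77% lower at E14.5. The calls were made on these sums, so their direction in each sum is no separate evidence. Against plate b2 of E12.5 alone, 86.1% of the genes called lower were lower on Smart-seq2. The fit left 1 residual degree of freedom, and over Smart-seq2 plates alone (2 of E12.5 and 4 of E14.5 with 10 neurons or more) edgeR called 0 genes, with 1979 at an unadjusted p under 0.05. Fewer cells of a type and less RNA per cell cannot be told apart in sums. Stage and digestion cannot be told apart either, since Dispase was used at E14.5 and not at E12.5. On Smart-seq2, plates b1 and b2 of E12.5 had other sequence batches than the plates of E14.5. Stage and sequence batch cannot be told apart on these plates, also where the levels of a gene do not overlap between them.

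**Figure D2:**
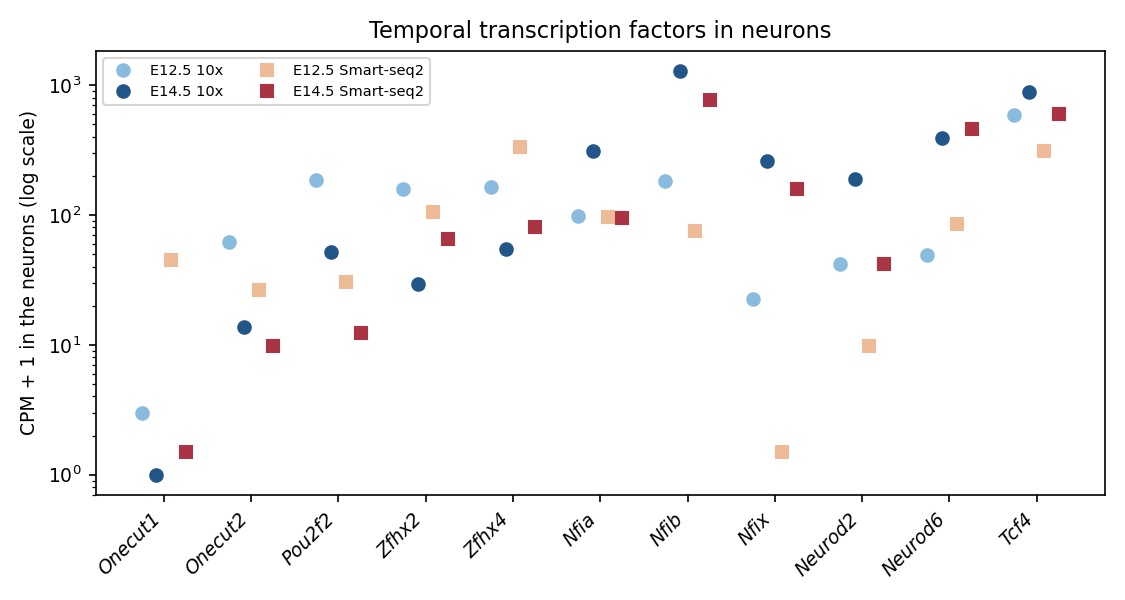
CPM + 1 (log axis) of 11 temporal transcription factors in the summed neurons, with circles for 10x, squares for Smart-seq2, and dark colours for E14.5. Nfib lies at 1282 and 770.1 CPM at E14.5 against 180.6 and 74.4 at E12.5, and Pou2f2 at 50.7 and 11.4 against 183.9 and 29.7.

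Of 6 late temporal factors, 4 rose and 0 fell, with a median log2 change of 2.42 against -0.04 over all genes. Nfib (GRCm38 chr4:82290173-82506751), a nuclear factor I protein of late neural development, was at 180.6 CPM at E12.5 and 1282 at E14.5 on 10x, and at 74.4 and 770.1 on Smart-seq2 (log2 change 3.07, SE 0.38, adjusted p = 1.65e-13 by edgeR). Its plates of E14.5 held 489.9, 963.9, 1031 and 643.00 CPM and did not overlap with the 82.5 and 68.4 of E12.5. Nfix (chr8:84704712-84801238), of the same family, was at 21.6 CPM at E12.5 and 259.6 at E14.5 on 10x, and at 0.49 and 156.9 on Smart-seq2 (log2 change 6.12, SE 0.52, adjusted p = 2.74e-28 by edgeR). The E14.5 plates spread widely, at 33.4, 323.4, 182.6 and 41.1 CPM, and all lay above the 0.281 and 0.683 of E12.5. Neurod6, a bHLH factor of postmitotic neurons, was at 48.4 CPM at E12.5 and 392.6 at E14.5 on 10x, and at 84 and 455.3 on Smart-seq2 (log2 change 2.67, SE 0.38, adjusted p = 6.87e-10 by edgeR). It reached 321.5, 332.97, 500.9 and 701.5 CPM on the E14.5 plates against 4.52 and 160.9. Neurod2, its close relative, was at 41.2 CPM at E12.5 and 186.8 at E14.5 on 10x, and at 8.84 and 40.9 on Smart-seq2 (log2 change 2.16, SE 0.42, adjusted p = 1.88e-05 by edgeR). Nfia did not pass (adjusted p = 0.373 by edgeR), and was at 97.5 CPM at E12.5 and 310.3 at E14.5 on 10x, and at 95.2 and 93.8 on Smart-seq2, with a log2 change of -0.02 over Smart-seq2 plates alone. Tcf4, an E protein, did not pass either (adjusted p = 0.31 by edgeR).

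The same factors were also read within the neuron classes described below, as levels with no test. In Pax2 neurons on Smart-seq2, Nfib was at 63.9 CPM at E12.5 and 917.8 at E14.5, and in Tlx3/Lmx1b neurons at 5.25 and 663.1. Nfix was at 1.07 and 152.8 CPM in the former and 0 and 167.5 in the latter. The Tlx3/Lmx1b sum of E12.5 held 14 neurons. Neurod6 was at 196.3 and 800.9 CPM in Pax2 neurons and at 0.197 and 194.2 in Tlx3/Lmx1b neurons. These 3 were higher at E14.5 in both classes, but Neurod2 was higher only in Pax2 neurons. On Smart-seq2 Neurod2 was at 15 and 84 CPM in Pax2 neurons and at 4.59 and 3.33 in Tlx3/Lmx1b neurons. On 10x it was at 58 and 692.4 CPM in the former and at 38.2 and 22.3 in the latter.

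The 3 middle factors tested all fell, and 2 of 3 early factors did. By DESeq2 2 middle factors and 1 early factor passed. Zfhx4, a zinc finger homeodomain factor, was at 161.7 CPM at E12.5 and 53.8 at E14.5 on 10x, and at 333.1 and 79.8 on Smart-seq2 (log2 change -1.90, SE 0.40, adjusted p = 0.000114 by edgeR). Pou2f2, a POU factor, was at 183.9 CPM at E12.5 and 50.7 at E14.5 on 10x, and at 29.7 and 11.4 on Smart-seq2 (adjusted p = 0.00319 by edgeR). The plates of both genes did not overlap between stages: Zfhx4 lay between 6.57 and 134.9 CPM on those of E14.5 and at 186.6 and 468.9 on those of E12.5. Onecut2, a cut homeodomain factor, was at 60.9 CPM at E12.5 and 12.7 at E14.5 on 10x, and at 25.5 and 8.75 on Smart-seq2 (adjusted p = 0.0318 by edgeR). Onecut1 was near 0 on 10x at both stages, with 1.96 and 0 CPM, and at 44 and 0.504 on Smart-seq2.

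Genes of neurogenesis and division were lower at E14.5: 10 of 16 neurogenesis genes fell and 1 rose, 10 of 15 cell cycle genes fell and 0 rose, and 5 of 8 dorsal Pax, Msx, Gsx and Olig factors fell. Neurod1, a bHLH factor of young neurons, was the neurogenesis gene that rose, at 28.1 CPM at E12.5 and 136.2 at E14.5 on 10x, and at 22.9 and 58 on Smart-seq2 (adjusted p = 0.00277 by edgeR). Top2a, a topoisomerase of dividing cells, was at 178.02 CPM at E12.5 and 3.17 at E14.5 on 10x, and at 288.4 and 1.22 on Smart-seq2 (adjusted p = 5.45e-34 by edgeR). On Smart-seq2 its level at E12.5 came from plate b1 at 598.8 CPM, while plate b2 was at 3.48 and the E14.5 plates between 1.19 and 1.26. Ccnd1, a cyclin of G1, was at 199.6 CPM at E12.5 and 6.33 at E14.5 on 10x, and at 163.2 and 6.26 on Smart-seq2. Notch1, a receptor that holds back neurogenesis, was at 106.03 CPM at E12.5 and 3.17 at E14.5 on 10x, and at 173.9 and 6.34 on Smart-seq2. Both were likewise higher on plate b1 of E12.5, at 303.5 and 305.1 CPM, than on b2, at 27.1 and 47. Pax3, a dorsal progenitor factor, was at 121.7 CPM at E12.5 and 28.5 at E14.5 on 10x, and at 178.01 and 10.4 on Smart-seq2. Pax7 itself, on which the labelling rests, was at 31.4 CPM at E12.5 and 3.17 at E14.5 on 10x, and at 10.9 and 0.0298 on Smart-seq2, and both fell (adjusted p = 6.39e-11 and 3.05e-06 by edgeR). The neural progenitor panel moved with stage as well: 37.8% of 10x neurons of E12.5 and 4.12% of those of E14.5 reached 0.7 on it. With such cells left out, 3.87% of the genes tested passed.

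Of 16 vesicle and release genes 3 rose, of 12 postsynaptic and adhesion genes 2, and of 17 transmitter receptor genes 4, with 0 falling in each list. By DESeq2 1, 2 and 3 passed. Gria1, an AMPA receptor subunit, was at 3.93 CPM at E12.5 and 44.3 at E14.5 on 10x, and at 22.5 and 217.98 on Smart-seq2 (log2 change 3.31, SE 0.48, adjusted p = 1.57e-09 by edgeR). Grin2b, an NMDA receptor subunit, was at 29.5 CPM at E12.5 and 76 at E14.5 on 10x, and at 19.6 and 175.6 on Smart-seq2. Glra2, a glycine receptor subunit, was at 8.51 CPM at E12.5 and 60.2 at E14.5 on 10x, and at 18.2 and 100.4 on Smart-seq2, so that subunits for glutamate and for glycine both rose. Rab3a, a GTPase of synaptic vesicles, was at 113.9 CPM at E12.5 and 291.3 at E14.5 on 10x, and at 158.5 and 435.7 on Smart-seq2 (adjusted p = 0.006 by edgeR). Spock3, an extracellular proteoglycan, was at 7.85 CPM at E12.5 and 120.3 at E14.5 on 10x, and at 54.6 and 478.8 on Smart-seq2 (log2 change 3.40, SE 0.42, adjusted p = 4.58e-13 by edgeR).

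Axon genes moved both ways, with 4 of 30 guidance genes rising and 5 falling. Nrp1, a receptor for semaphorins, was at 24.2 CPM at E12.5 and 107.7 at E14.5 on 10x, and at 49.7 and 465.1 on Smart-seq2 (log2 change 2.75, SE 0.41, adjusted p = 6.44e-09 by edgeR). Slit1, a repulsive ligand for Robo receptors, rose as well, at 7.85 CPM at E12.5 and 28.5 at E14.5 on 10x, and at 33 and 179.9 on Smart-seq2. Epha3, an ephrin receptor, fell, at 107.3 CPM at E12.5 and 34.8 at E14.5 on 10x, and at 222.7 and 17.6 on Smart-seq2. Robo3, the receptor of commissural axons, fell too (adjusted p = 0.00817 by edgeR), from 225.8 to 85.5 CPM on 10x. On Smart-seq2 its direction rested on plate b2 of E12.5, at 1874 CPM, since plate b1 was at 308.1 and the E14.5 plates lay between 226.2 and 773.7. Of 19 cytoskeletal genes 3 rose and 2 fell. The tubulin Tubb2a rose, at 209.4 CPM at E12.5 and 611.1 at E14.5 on 10x, and at 574.1 and 2287 on Smart-seq2. Of the neurofilament subunits, Nefl fell, at 214.7 CPM at E12.5 and 91.8 at E14.5 on 10x, and at 330.3 and 111.02 on Smart-seq2. Nefm fell as well, at 181.9 CPM at E12.5 and 91.8 at E14.5 on 10x, and at 184.4 and 56.7 on Smart-seq2.

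Of 15 neuropeptide and calcium-binding genes 4 rose and 2 fell. Grp, the gastrin-releasing peptide of itch circuits, was at 3.27 CPM at E12.5 and 85.5 at E14.5 on 10x, and at 0 and 21.2 on Smart-seq2 (adjusted p = 1.95e-13 by edgeR), and its E14.5 plates lay between 10.2 and 34.1 CPM against 0 and 0. Pnoc, the precursor of nociceptin, was at 14.4 CPM at E12.5 and 76 at E14.5 on 10x, and at 20 and 110.8 on Smart-seq2 (adjusted p = 1.78e-05 by edgeR). Pdyn, the dynorphin precursor, passed the test through plate b2 of E14.5 alone, the other 3 plates and the 10x neurons of that stage being at 0. Sst, the somatostatin precursor, fell, at 88.4 CPM at E12.5 and 57 at E14.5 on 10x, and at 60.3 and 13.2 on Smart-seq2 (adjusted p = 0.014 by edgeR). Of 11 late factors of the dorsal horn 2 rose, Rorb and Bcl11b. Rorb, a nuclear receptor, went from 17.7 to 44.3 CPM on 10x (adjusted p = 0.00584 by edgeR), and on the E14.5 plates was at 143.6, 177.2, 10.4 and 108.3 against 6.38 and 53.9 CPM, with plate b3 among the low values. Bcl11b, a zinc finger factor, was at 142.02 CPM at E12.5 and 329.3 at E14.5 on 10x, and at 47.6 and 162.1 on Smart-seq2. Of 10 immediate early and stress genes 3 rose and 0 fell, among them Fos, an activity and stress response factor, at 100.8 CPM at E12.5 and 183.7 at E14.5 on 10x, and at 32.3 and 381.3 on Smart-seq2 (adjusted p = 4.83e-06 by edgeR).

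Of 6 dI5 and dILB genes, listed as factors of the excitatory class, 4 rose and 0 fell, and 3 passed by DESeq2. Ebf3 was among the 4, but did not pass between the neuron classes described below (log2 difference -0.48, adjusted p = 0.927 by edgeR). Tlx3, a homeodomain factor of excitatory neurons, was at 144.6 CPM at E12.5 and 278.6 at E14.5 on 10x, and at 2.05 and 14.2 on Smart-seq2 (adjusted p = 0.000148 by edgeR). Lmx1b, its partner in these neurons, was at 28.1 CPM at E12.5 and 50.7 at E14.5 on 10x, and at 23.6 and 105.9 on Smart-seq2 (adjusted p = 0.0165 by edgeR). Prrxl1, which acts with them, was at 48.4 CPM at E12.5 and 136.2 at E14.5 on 10x, and at 68.1 and 272.5 on Smart-seq2, on E14.5 plates between 148.6 and 379.2 CPM against 64.2 and 71.6. Of 8 dI4 and dILA genes 0 rose and 2 fell, Ptf1a, the early determinant of inhibitory neurons, and Lhx1 at 349.5 CPM at E12.5 and 31.7 at E14.5 on 10x, and at 261.6 and 62.2 on Smart-seq2 (adjusted p = 1.42e-08 by edgeR). Of 5 inhibitory transmitter genes 0 passed by edgeR, 2 had an unadjusted p under 0.05 and 0 passed by DESeq2, with Gad2 at 109.3 CPM at E12.5 and 85.5 at E14.5 on 10x, and at 278.9 and 163.5 on Smart-seq2 (adjusted p = 0.54 by edgeR) and at 106.8 and 446.9 CPM on the 2 plates of E12.5. Slc17a6, the only excitatory transmitter gene tested, did not pass either (adjusted p = 0.172 by edgeR). It was at 23.6 CPM at E12.5 and 44.3 at E14.5 on 10x, and at 132.01 and 283.6 on Smart-seq2. Shares of neurons with Tlx3 or Lmx1b rest on detection of these genes and are no separate evidence. At any count, Lmx1b was detected in 48% and Tlx3 in 22% of E14.5 neurons on Smart-seq2, but in 15.5% and 38.1% on 10x. The shares therefore rest mostly on Lmx1b on Smart-seq2 and mostly on Tlx3 on 10x. The share with either and no Pax2 went from 14.1% (7.95 to 22.6) at E12.5 to 46.3% (37.3 to 55.6) at E14.5 on Smart-seq2. It went from 17.7% to 42.3% on 10x. With neurons that also had Pax2 counted in, the 10x share was 33.1% (28.5 to 37.9) at E12.5 and 44.3% (34.2 to 54.8) at E14.5. These intervals overlapped. Neurons with Pax2 alone went from 25.1% (21 to 29.7) to 8.25% (3.63 to 15.6) on 10x. On Smart-seq2 they went from 47.5% (37.3 to 57.8) to 41.5% (32.7 to 50.7). The level of Pax2 did not pass (adjusted p = 0.782 by edgeR). It was at 188.5 CPM at E12.5 and 47.5 at E14.5 on 10x, and at 151.2 and 244.9 on Smart-seq2.

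Factors of other neuron types differed in level at E14.5. Of 4 dI1 factors 3 fell and 0 rose, and 2 passed by DESeq2. Lhx9 was at 7.2 CPM at E12.5 and 0 at E14.5 on 10x, and at 103.1 and 0.547 on Smart-seq2. Its Smart-seq2 level at E12.5 came mostly from plate b1, at 204.7 CPM against 9.99 on b2. Lhx2, counted among those that fell, did so on Smart-seq2 only, from 12.6 to 0.0298 CPM, and was at 19.6 and 22.2 on 10x. Barhl1, another dI1 factor, did not pass (adjusted p = 0.28 by edgeR) and was at 9.82 CPM at E12.5 and 50.7 at E14.5 on 10x, and at 21.8 and 0 on Smart-seq2. Pou4f1, of the dI2 and dI3 list, did not pass either (adjusted p = 0.998 by edgeR), at 162.3 CPM at E12.5 and 281.8 at E14.5 on 10x, and at 99.3 and 61.3 on Smart-seq2. Bhlhe22, of the dI6 list, was at 57 CPM on 10x and 9.92 on Smart-seq2 at E14.5. Ntrk3, a neurotrophin receptor of the sensory neuron list, rose, at 18.3 CPM at E12.5 and 50.7 at E14.5 on 10x, and at 37.9 and 147.8 on Smart-seq2 (adjusted p = 0.00375 by edgeR). Gata2 and Ptf1a, of V2 and dI4 neurons, were at 0 on both platforms at E14.5, and Chat, the enzyme of cholinergic neurons, was at 0 CPM on 10x and 0.0298 on Smart-seq2.

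Of 33 Hox genes tested, which record position along the body axis, 3 rose and 4 fell, and 2 passed by DESeq2. Hoxb8 was at 687.9 CPM at E12.5 and 962.6 at E14.5 on 10x, and at 19.4 and 134.5 on Smart-seq2 (log2 change 1.62, SE 0.38, adjusted p = 0.000996 by edgeR), and Hoxa2 fell, at 82.5 CPM at E12.5 and 69.7 at E14.5 on 10x, and at 56.3 and 8.82 on Smart-seq2 (adjusted p = 0.0112 by edgeR). On 10x, where UMIs do not scale with transcript length, genes of paralog group 8 summed to 1086 CPM at E14.5 and those of group 9 to 1023, against 12.7 for group 1 and 3.17 for group 11.

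**Figure D3:**
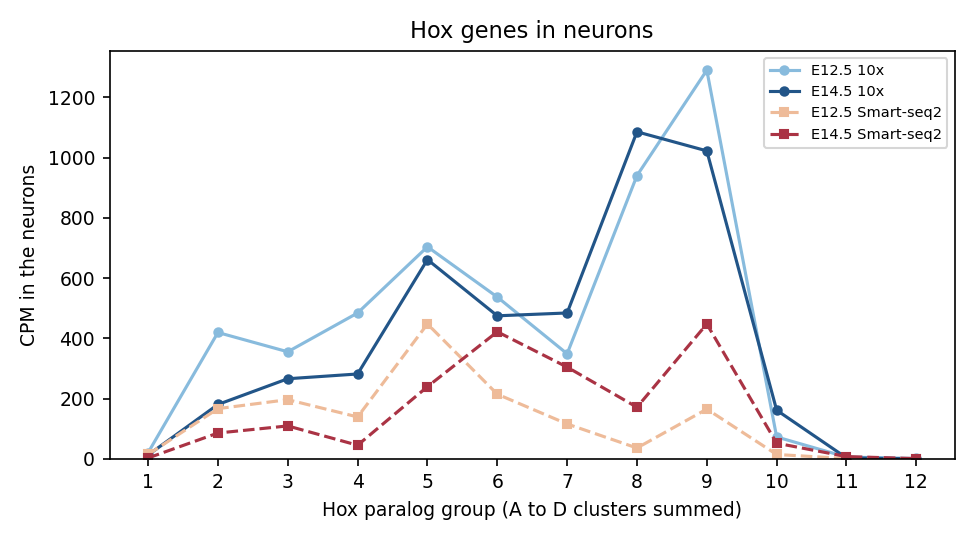
CPM of the Hox genes summed over the 4 clusters for each paralog group in the neurons of each platform and stage (solid lines 10x, dashed Smart-seq2, not corrected for transcript length). On 10x at E14.5 the line stands highest at groups 8 and 9, at 1086 and 1023 CPM, and lies at 3.17 at group 11.

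The neurons of E14.5 were split by detection of Pax2 and of Tlx3 or Lmx1b (at least 10 CPM in a cell on Smart-seq2, at least 1 UMI on 10x). On Smart-seq2 most neurons fell on 1 side: 51 neurons (41.5%, interval 32.7 to 50.7) had Pax2 alone, 57 (46.3%, 37.3 to 55.6) had Tlx3 or Lmx1b alone, 15 had neither, and 0 had both, which allows a share of up to 2.44%. Pax2 neurons had 14.9 to 1297 CPM of Pax2 (median 445.2) and at most 7.2 of Tlx3 and Lmx1b together. Tlx3/Lmx1b neurons had 17.4 to 902.2 CPM of these (median 190.96) and at most 4.3 of Pax2. In the sum of this class, Lmx1b was at 219.03 CPM and Tlx3 at 29.4 on Smart-seq2, but at 119.1 and 632.9 on 10x. Every plate held both classes, with 10, 8, 12 and 21 Pax2 neurons and 15, 12, 14 and 16 Tlx3/Lmx1b neurons. On 10x, 8 neurons had Pax2 alone, 41 Tlx3 or Lmx1b alone, 2 both and 46 neither. Of the other E14.5 cells of that library, at a median of 6172 UMIs, 0.115% had a UMI of Pax2 and 0.918% of Tlx3 or Lmx1b. At E12.5, 15.4% of 10x neurons (12 to 19.3) and 0 of 99 Smart-seq2 neurons had both.

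**Figure D4:**
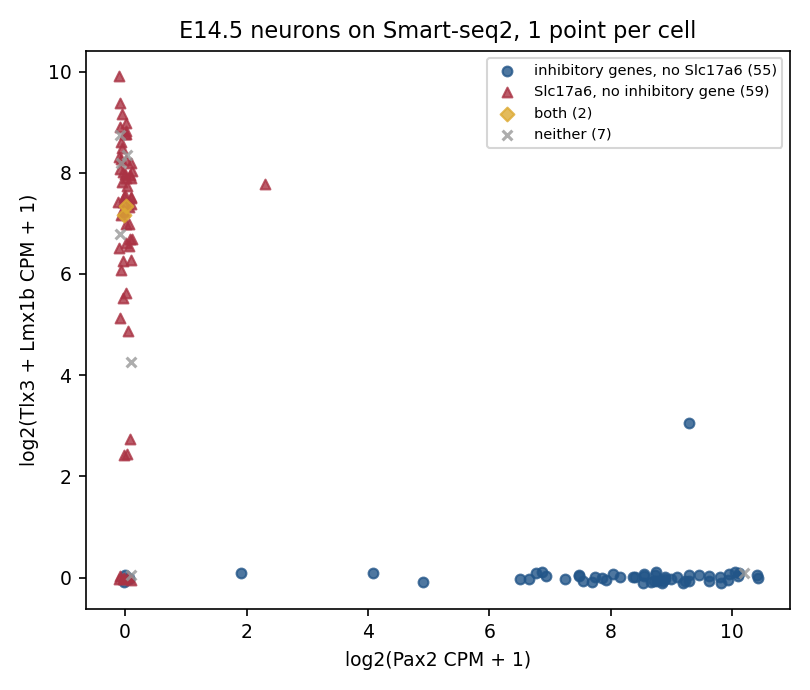
log2(CPM + 1) of Pax2 against that of Tlx3 plus Lmx1b in each Smart-seq2 neuron of E14.5, with a small random shift so that points do not hide each other, coloured by transmitter genes detected at 10 CPM. Cells with inhibitory genes only (55) lie mostly along the Pax2 axis and those with Slc17a6 only (59) mostly along the other.

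Transmitter genes, which were not used to split the cells, differed between the classes. Slc17a6, the vesicular glutamate transporter of dorsal neurons, was detected in 52 of 57 Tlx3/Lmx1b neurons on Smart-seq2 (91.2%, interval 80.7 to 97.1) and 0 of 51 Pax2 neurons, which allows up to 5.88%. At least 1 of Gad1, Gad2, Slc32a1 and Slc6a5, which make or carry GABA and glycine, was detected in 50 of 51 Pax2 neurons (98%, 89.6 to 100) and 2 of 57 Tlx3/Lmx1b neurons (3.51%, 0.428 to 12.1). Over all Smart-seq2 neurons, 59 had Slc17a6 alone, 55 an inhibitory gene alone, 2 both and 7 neither. The 15 neurons outside both classes were divided too, 9 with Slc17a6 and 5 with an inhibitory gene. On 10x, 9 of 41 Tlx3/Lmx1b neurons and 0 of 8 Pax2 neurons had a UMI of Slc17a6, and 1 of 41 and 7 of 8 had one of an inhibitory gene. In the other cells of that library these shares were 0.23% and 1.61%. Cells of a plate share their preparation, so these intervals cover counting error only.

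The classes were compared over sums of the 2 Smart-seq2 sequence batches of E14.5, with 18 and 33 Pax2 neurons and 27 and 30 Tlx3/Lmx1b neurons. Lhx1, Lhx5, Pax8, Sall3, Gad2 and Slc6a5 were among the genes higher in Pax2 neurons, and Slc17a6, Cacna2d1, Pou4f1 and Ebf2 among those higher in Tlx3/Lmx1b neurons. The 10x library did not enter because it had under 10 Pax2 neurons. Of 12429 genes, 27 (0.217%) passed by edgeR with batch as a term, 20 (0.161%) higher in Pax2 neurons and 7 (0.0563%) higher in Tlx3/Lmx1b neurons. The fit left 1 residual degree of freedom, with 827 genes at an unadjusted p under 0.05. The number of calls and their balance changed with the fit: 3.56% of genes passed by DESeq2 and 1.25% by edgeR with the 10x library let in, 54.3% and 47.6% of them higher in Pax2 neurons against 74.1% above, and 0% passed by edgeR over pools of all stages.

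**Figure D5:**
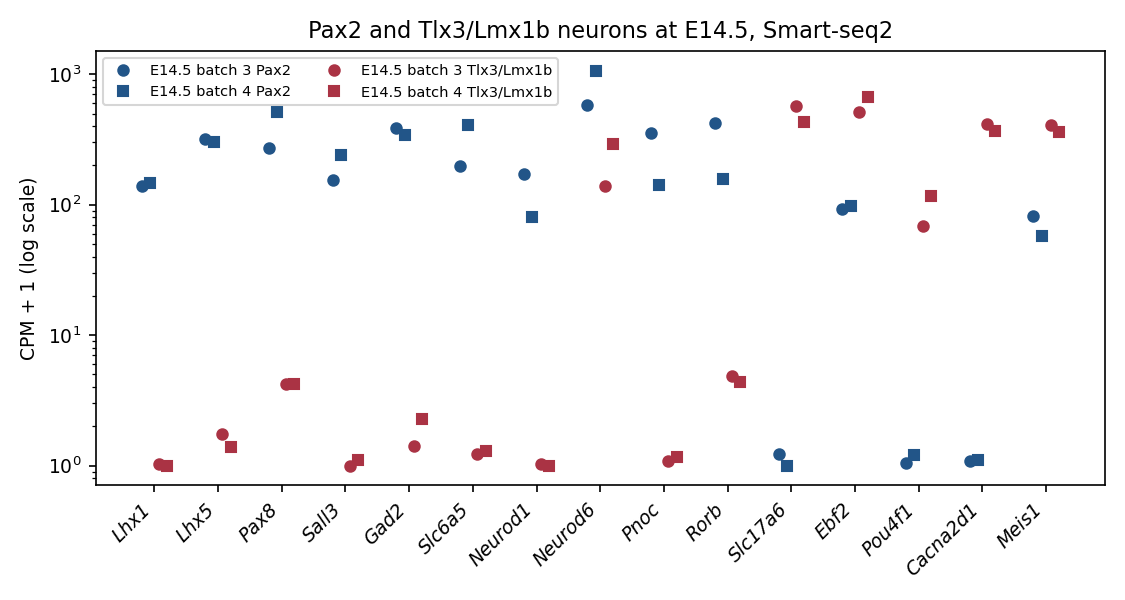
CPM + 1 (log axis) of 15 genes in Pax2 neurons (blue) and Tlx3/Lmx1b neurons (red) of E14.5, for sequence batch 3 (circles) and 4 (squares). Lhx5 lies at 320.1 and 301.4 CPM in Pax2 neurons and below 1 in the others, and Slc17a6 at 571.1 and 427.6 CPM in Tlx3/Lmx1b neurons.

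Among the dI4 and dILA factors, 4 of 6 tested were higher in Pax2 neurons and 0 lower. Lhx5 (chr5:120431886-120441457), a LIM homeodomain factor, was at 320.1 and 301.4 CPM in the 2 batches of Pax2 neurons and 0.747 and 0.394 in those of Tlx3/Lmx1b neurons (adjusted p = 0.00642 by edgeR). It was detected in 44 of 51 Pax2 neurons and 0 of 57 Tlx3/Lmx1b neurons. Lhx1, its close relative, was at 139.1 and 146.7 against 0.0324 and 0 CPM in the same order (adjusted p = 0.00997 by edgeR). Pax8, a relative of Pax2, was at 269.2 and 512.5 against 3.21 and 3.21 CPM (adjusted p = 0.00956 by edgeR), and Sall3, a zinc finger factor, at 153.4 and 239.7 against 0 and 0.113 CPM (adjusted p = 0.01 by edgeR). Neurod1 was at 171.6 and 80.1 against 0.0324 and 0 CPM (adjusted p = 0.00997 by edgeR). Of 6 late temporal factors 1 passed, Neurod6, at 574.9 and 1067 against 139.1 and 289.8 CPM (log2 difference 1.96, adjusted p = 0.0376 by edgeR), while Nfib, at 1084 and 722.3 against 621.6 and 735.2 CPM, did not (adjusted p = 0.906 by edgeR). Neurod2 was at 81.6 and 86.8 against 3.76 and 2.59 CPM and did not pass either (adjusted p = 0.0897 by edgeR). It was detected in 30 of 51 Pax2 neurons and 3 of 57 Tlx3/Lmx1b neurons.

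Of 5 inhibitory transmitter genes 2 passed, both higher in Pax2 neurons. Gad2, a GABA-synthesizing enzyme whose promoter is printed above, was at 382.96 and 342.5 against 0.423 and 1.27 CPM (adjusted p = 0.00997 by edgeR), and Slc6a5, the neuronal glycine transporter, at 197.3 and 406.1 against 0.222 and 0.299 CPM (adjusted p = 0.00608 by edgeR). Gad1, the other GABA-synthesizing enzyme, was at 405.7 and 342.9 against 15.1 and 0 CPM and did not pass (adjusted p = 0.446 by edgeR). Of 11 neuropeptide and calcium-binding genes 1 passed, Pnoc, at 352.4 and 141.7 against 0.075 and 0.172 CPM (adjusted p = 0.00997 by edgeR), detected in 23 of 51 and 0 of 57 neurons. Npy, neuropeptide Y, was at 852.6 and 760.1 against 0 and 2.42 CPM without passing (adjusted p = 0.111 by edgeR), and Grp was detected in 0 of 51 Pax2 neurons and 12 of 57 Tlx3/Lmx1b neurons. Rorb was at 422.3 and 156.8 against 3.9 and 3.4 CPM (adjusted p = 0.0155 by edgeR), and Robo3 at 777.04 and 1176 against 78.2 and 226.9 CPM (log2 difference 2.84, adjusted p = 0.0445 by edgeR). Grik2, a kainate receptor subunit, was at 407.6 and 217.96 against 17.5 and 11.8 CPM (adjusted p = 0.0109 by edgeR), but on 10x it was at 0 against 7.45 CPM.

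Outside the lists, the other genes higher in Pax2 neurons were Smad3, Dhrs3, Gpc4, Lamp5, Cacna2d3, Grm3, Tfap2b and Ndn, some of whose values are given here after they were seen. On 10x, Gpc4 was at 0 CPM in Pax2 neurons and 14.9 in Tlx3/Lmx1b neurons, and Smad3 and Dhrs3 were at 0 in both. Lamp5, Cacna2d3, Grm3, Tfap2b and Ndn were higher in the Pax2 neurons of that library too. Lamp5, a membrane protein of neurons, was at 781.1 and 1203 against 1.72 and 9.17 CPM (adjusted p = 0.0109 by edgeR). Tfap2b, an AP-2 factor, was at 165.7 and 463.5 against 13.8 and 23 CPM (adjusted p = 0.0225 by edgeR). Dhrs3, a retinal reductase, was uneven between the batches, at 9.13 and 120.8 against 0 and 0.0563 CPM (adjusted p = 0.0469 by edgeR).

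In Tlx3/Lmx1b neurons, Slc17a6 was at 571.1 and 427.6 against 0.221 and 0 CPM (adjusted p = 0.00899 by edgeR). Cacna2d1 (chr5:15934264-16374511), a calcium channel subunit, was at 413.5 and 366.4 against 0.0883 and 0.104 CPM (adjusted p = 0.0039 by edgeR) and was detected in 50 of 57 and 0 of 51 neurons. Adcyap1, the precursor of the peptide PACAP, was at 157.96 and 105.1 against 0 and 0 CPM (adjusted p = 0.0225 by edgeR), although 8 Pax2 neurons of the 10x library were at 81.5 CPM and its Tlx3/Lmx1b neurons at 22.3. Pou4f1, a POU factor also of sensory neurons, was at 67.9 and 115.6 against 0.0441 and 0.208 CPM (adjusted p = 0.0225 by edgeR). Ebf2, an EBF factor, was at 516.3 and 663.9 against 91.7 and 95.9 CPM (log2 difference -2.64, adjusted p = 0.0225 by edgeR), and was the only one of 4 dI5 and dILB genes tested to pass. Prrxl1 was detected in 38 of 57 and 9 of 51 neurons and did not pass (adjusted p = 0.365 by edgeR). Meis1, a homeodomain cofactor of Hox proteins, was at 407.8 and 362.7 against 81.6 and 56.2 CPM (log2 difference -2.50, adjusted p = 0.0469 by edgeR), but on 10x it was at 104.2 against 203.7 CPM. Gas2, a regulator of actin, was the remaining gene higher in Tlx3/Lmx1b neurons.

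Of the lists with 0 genes past the threshold by edgeR, the longest were those of 31 Hox, 18 cytoskeletal, 16 vesicle and release, 12 postsynaptic and adhesion, 12 neuronal RNA binding and 12 cell cycle genes tested, and the others had 7 genes or fewer. Their median log2 differences, in this order, were 0.21, -0.10, 0.10, 0.01, 0.23 and 0.06, against -0.01 over all genes. At an unadjusted p under 0.05 they had 1, 4, 4, 2, 4 and 0 genes, and by DESeq2 0, 1, 3, 2, 3 and 0 passed.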

How the data were processed

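Single YFP+ cells of E12.5, E14.5 and E16.5 were profiled on 10x and Smart-seq2 (GRCm38). The authors deposited 10x UMI counts made with Cell Ranger and Smart-seq2 estimated counts (expected counts) made with kallisto 0.44.0, both after their own filters on cells. The bulk samples were not used here. Counts (Smart-seq2 rounded to whole numbers) were summed over neurons for the 15147 genes in both tables and tested with edgeR 4.0.16 (TMM, filterByExpr, quasi-likelihood) in R 4.3.3. The 36 panel genes were left out of the tests, and Pax2, Tlx3 and Lmx1b out of that between classes. SEs are the log2 change over the root of F. Both fits were also run on simulated sums that had no platform or batch difference. Such sums cannot show how the fits behave where platforms or batches differ. Doublet calls by Scrublet (scanpy 1.11.5), 10 of 968 10x cells of E14.5 and 1 of its neurons, were kept. Alternatives included DESeq2 1.42.0, cell filters and plates. Named genes are, per list, up to 6 members with the largest change past the threshold (else the member highest on 10x), and, per test, up to 6 genes per direction that passed, reached 100 CPM on both platforms in the higher group and moved 1 way in every pool, unnamed gene models aside. Nfia, Tcf4, Gad1, Npy, Chat, Barhl1, Bhlhe22, Stmn2, Elavl4, the collagen and globin genes and genes outside the lists were chosen after their values were seen. So were Pax6, Pax2 and Slc17a6 between the stages, and Neurod2 between the classes. Some members of the lists are counted but not reported here by name. Members and lists were chosen with earlier results of these data known. The labels do not say that pools or plates came from separate embryos. No platform had replicate pools of a stage, so p-values of the stage test rest on how the stage change differed between 10x and Smart-seq2. Those of the class test rest on how the class difference varied between the sequence batches. Both may be technical, and neither measures the spread between animals.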

Additional observations from a re-analysis of the deposited data

Results flagged for a closer look

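On the 4 Smart-seq2 plates of E14.5, 100 values (levels of named genes that reached 10 CPM, shares and depths) were searched for a plate far from the other 3, and 6 had one, where chance gives about 1 in 20. Pdyn was at 138.01 CPM on plate b2 and at 0 on the others. Notch1 was at 22.2 CPM on plate b1 and between 0.0283 and 3.02 on the others. Mcm3 was at 15.2 CPM on plate b2 and between 0 and 0.0355 on the others. Meis1 was at 209.51 CPM on plate b4 and between 284.38 and 295.89 on the others. Dhrs3 was at 82 CPM on plate b4 and between 0 and 9.04 on the others. Cacna2d3 was at 82.5 CPM on plate b2 and between 62.1 and 65.4 on the others.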

How the results depend on the processing

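Between E14.5 and E12.5 neurons, 4.86% of the genes tested passed, and 3.36% to 6.49% with DESeq2, no filter on low counts, a panel minimum of 1.0, a mitochondrial limit, mixed or doublet cells left out, or, chosen after seeing the data, neural progenitor scores under 0.7. With no platform term (chosen after seeing the data) and over Smart-seq2 plates alone, 0% passed, with 3.84% and 14.9% at an unadjusted p under 0.05. Leaving out each plate in turn (chosen after seeing the data) gave 0% to 6.26%, the latter without plate b2 of E12.5, which leaves 1 plate of that stage, assumed to vary like the others. On plates alone or with a plate left out, some directions turned: Robo3 to a log2 change of 0.49 (range -2.02 to 0.49) and Gad2 to 0.56 (range -1.41 to 0.56) without plate b2 of E12.5, Mcm3 to 0.92 (range -12.19 to 0.92) without plate b1 of E12.5, and Nfia to -0.02 over all plates (leaving out 1 plate gave -0.55 to 0.85), -0.55 without b1 of E12.5, -0.32 without b2 and -0.10 without b3 of E14.5. Of 100 named genes, 20 lost their call with DESeq2. Between the classes, 0.217% passed, 3.56% with DESeq2, 0% over pools of all stages (5.44% at an unadjusted p under 0.05), 0.378% with detection at any count and, chosen after seeing the data, 1.25% with 5 cells on each side, which lets the 10x library in. The other alternatives gave 0.146% to 0.257%, plates as a block included, and 8 of 32 named genes lost their call with mixed cells left out. The cause of these differences was not tested. Fits without 1 pool had no residual degree of freedom and were not tested. Thinned to equal depth, the share of neurons was 10.1% on 10x and 37.7% on Smart-seq2, and the share of neurons with a gene detected moved beyond its interval for 43 of 79 genes on 10x and 26 of 78 on Smart-seq2. Leaving out each plate in turn (chosen after seeing the data), the Smart-seq2 share ran from 30.3% to 42.6% at E14.5 and from 18.6% to 35.7% at E12.5, lowest without plates b4 and b2. The class fit has sequence batch as a term, and each batch holds both classes, but by replicate number no paired analysis was possible because these numbers only name cells in accession order.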
